A study of Arabidopsis thaliana with 8 samples.

Results

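Late pollen and pollen tube genes are those whose transcripts build up as the pollen grain matures and whose products drive the tube that carries the sperm cells to the ovule. The 9 genes described here were chosen by name, as rows of the deposited table of 28775 genes: the pectin methylesterase genes VGD1 (AT2G47040), VGDH1 (AT2G47030) and PPME1 (AT1G69940), the arabinogalactan protein genes AGP6 (AT5G14380), AGP11 (AT3G01700) and AGP23 (AT3G57690), the calcium pump gene ACA9 (AT3G21180), and the receptor kinase genes ANX1 (AT3G04690) and ANX2 (AT5G28680). All 9 had reads in both treatments. The study measured messenger RNA by sequencing in Arabidopsis thaliana floral buds of mixed stages, to find genes downstream of the petal regulator RABBIT EARS (RBE). The DEX group was buds of L er plants with the 35S:GR-RBE transgene, treated for 4 h with 10 µM dexamethasone in 0.1% ethanol and 0.015% silwet. The mock group was buds of the same transgenic line kept for 4 h in the ethanol and silwet alone. In that line the 35S promoter, which is active in most plant tissues, drives RBE joined to a glucocorticoid receptor domain that dexamethasone binds, and plants without the transgene were not analysed here. Both treatments were sequenced as 2 biological replicates, each in 2 technical replicates (4 libraries a treatment). The authors deposited 1 value per gene and treatment, which is taken here as pooled over these libraries.

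A growing pollen tube extends only at its tip, where secreted pectin is laid down in methylated form and is then stiffened as methyl groups are removed. Pectin methylesterases remove these groups, arabinogalactan proteins are heavily glycosylated proteins of the cell surface, and an autoinhibited calcium pump clears calcium from the cytoplasm at the plasma membrane. The receptor kinases ANX1 and ANX2 act at the tube's surface to keep the tube from bursting before it reaches the ovule. In buds of mixed stages only the older anthers hold pollen that has passed its mitotic divisions, so the level of these transcripts in a whole bud also follows how much mature pollen it holds. Fewer pollen grains and less RNA per grain cannot be told apart in such samples.

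The copies among these genes are shown first, because reads that match more than 1 gene can be lost or moved between them. The RefSeq annotation of TAIR10.1 places VGD1 at chr2:19327853-19330197 and VGDH1 at chr2:19324134-19326484, neighbours on the minus strand. Their coding sequences were 91.8% identical over 1758 aligned bases. Of all windows of 36 bases within the exons, 8.27% in VGD1 and 8.48% in VGDH1 had an exact match elsewhere in the genome, mostly in the other of the pair. No source used here gives the read length, so this window is only a yardstick. The longest run the 2 coding sequences share is 74 bases, at chr2:19328322-19328395 in VGD1 and chr2:19324551-19324624 in VGDH1, and a read within it could not be assigned:
VGD1 and VGDH1: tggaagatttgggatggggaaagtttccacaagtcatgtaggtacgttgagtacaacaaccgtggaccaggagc
Aligned 60-base coding windows were compared only where they had no gap and lay within 1 exon of each gene. The one that differed most, at 13 bases, lies at chr2:19329773-19329832 in VGD1 and chr2:19325981-19326040 in VGDH1, and capitals mark the differing bases:
VGD1: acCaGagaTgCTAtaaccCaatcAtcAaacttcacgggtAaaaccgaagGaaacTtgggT
VGDH1: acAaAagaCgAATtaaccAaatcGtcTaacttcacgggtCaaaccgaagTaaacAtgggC

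PPME1 has a closer copy on another chromosome. It lies at chr1:26343275-26345058 on the minus strand, and its coding sequence was 96.6% identical to that of AT5G07410, a pectin lyase-like gene on chromosome 5, over 1086 aligned bases. Of the 36-base windows in the exons of PPME1, 13.8% had an exact match in that gene. The longest shared coding run is 89 bases and crosses an exon junction in both genes, so that it spans chr1:26343998-26344158 in PPME1 and chr5:2346667-2346828, on the plus strand, in AT5G07410:
PPME1 and AT5G07410: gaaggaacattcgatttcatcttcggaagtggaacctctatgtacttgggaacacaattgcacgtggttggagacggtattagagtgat
Even the most different 60-base coding window under the same limits, the first of both genes (chr1:26344912-26344971 and chr5:2345852-2345911), held only 6 differing bases, in capitals:
PPME1: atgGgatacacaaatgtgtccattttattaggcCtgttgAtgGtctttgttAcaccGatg
AT5G07410: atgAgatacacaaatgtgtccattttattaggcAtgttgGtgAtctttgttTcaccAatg
The other 6 genes shared no 36-base window with any other place in the genome. ANX1 and ANX2 were 81.3% identical and AGP6 and AGP11 77.6% identical in their aligned coding bases, with longest shared runs of 29 and 17 bases.

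Reads assigned to genes totalled 102.1 × 1e6 in the DEX pool and 119.1 × 1e6 in the mock pool. Reads per gene are estimates recovered from the deposited log-likelihood score, and the value of VGD1 is known only to within 0.352% because its score was deposited with fewer digits. Levels below are reads per kilobase of exon scaled to library size (RPKM), and ratios are log2(DEX/mock) from the authors' deposited table. Errors given as ± are standard errors of the ratio from read counting alone, and copies made by PCR are not independent molecules. There is no value per library, so no difference below has a check against the spread between replicates. A direction was called where the posterior probability that the authors deposited for the opposite one was under 0.05. Because counting error is small at this depth, 36.4% of the 24945 genes with reads in both pools were called higher by this rule and 20.8% lower. Among the 19983 of them with 200 reads or more, the shares were 41.8% and 24.5%.

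Of the 9 genes, 8 were called higher in DEX and 1, PPME1, lower. The 8 higher genes ranged from 1.20-fold (ANX1) to 1.49-fold (ANX2), and none of the 9 differed by 1.5-fold or more, a limit that 4.45% of genes passed upward and 2.91% downward. The median log2 ratio was 0.35, against 0.05 over all genes with reads in both pools. When ratios were centred on the median gene, 25.4% of genes were called higher and 29.5% lower, and the 9 genes still gave 8 higher and 1 lower. These genes are well read: among the 10590 genes with read numbers in their range, 43.8% were called higher and 28.7% lower, at a median of 0.03. Together the 9 genes took 0.183% of all reads in DEX and 0.143% in mock. VGD1 alone supplied 49.2% of those reads in DEX and 48.4% in mock.

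**Figure D1:**
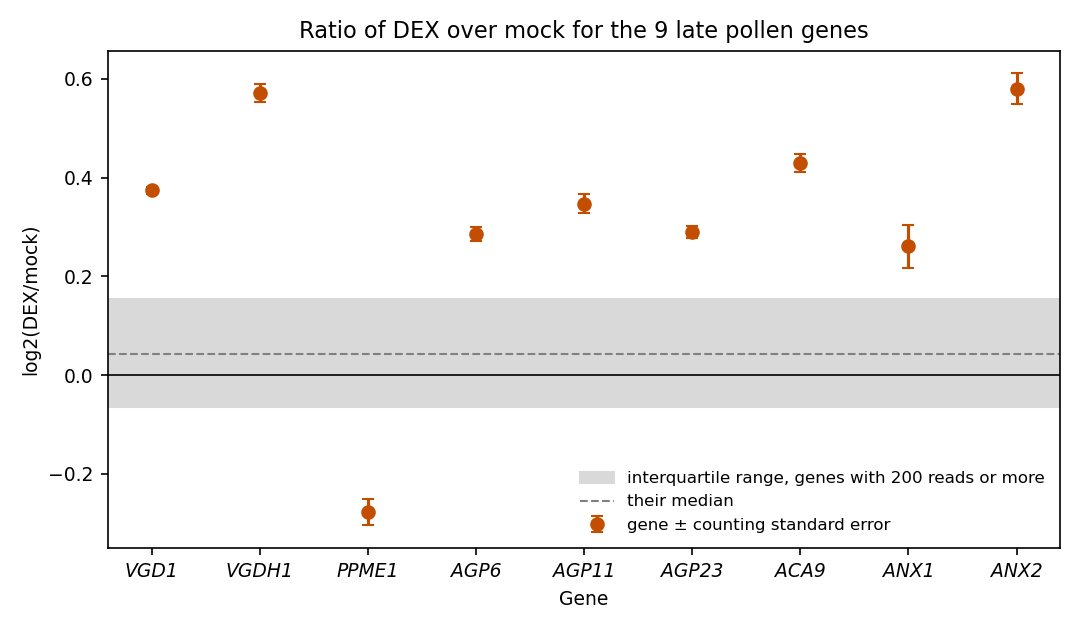
log2(DEX/mock) of each gene, with its counting standard error as bars; the grey band is the interquartile range and the dashed line the median of the 19983 genes with 200 reads or more. The points of 8 genes lie above the band, between 0.26 and 0.58, and PPME1 lies below it at -0.28.

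The pectin methylesterase genes did not share a ratio. VGD1, which is needed for normal tube growth through the style and transmitting tract, had 91892 reads in DEX and 82633 in mock, or 398.0 RPKM in DEX and 307.0 in mock. Its ratio of 0.37 ± 0.0069 was above that of 92.2% of the 19983 genes with 200 reads or more. VGDH1, its tandem homologue, was lower in level, at 60.6 RPKM in DEX (14023 reads) and 40.8 in mock (11001 reads), and had the larger ratio, 0.57 ± 0.018. The ratio of VGDH1 exceeded that of VGD1 by 0.20 ± 0.020, which is 10.0 times the counting error of the difference. VGD1 thus stood 6.57 times as high as VGDH1 per length in DEX and 7.53 times in mock. With the reads of both genes summed, the ratio was 0.40 ± 0.0065. The third homologue, VGDH2, which is 75.9% identical to VGD1 in coding sequence, was at 0.32 ± 0.0090.

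PPME1, a pectin methylesterase that shapes the growth of the tube, was the exception. It had 4947 reads in DEX and 6986 in mock, at 33.5 RPKM in DEX and 40.6 in mock. Its ratio of -0.28 ± 0.027 corresponds to 1.21-fold lower in DEX, and only 8.1% of genes with 200 reads or more had a lower one. Its near-identical copy AT5G07410 went the other way, with 12204 reads in DEX and 10271 in mock, or 81.3 RPKM in DEX and 58.7 in mock, and a ratio of 0.47 ± 0.019. The reads of PPME1 thus came to 0.405 of those of its copy in DEX and to 0.680 in mock. The 2 ratios differed by 0.75 ± 0.033. With the reads of both genes summed, a setting chosen after seeing the data, the ratio was 0.21 ± 0.016 and the sum was higher in DEX. The split of reads between these copies was not tested, so the lower call of PPME1 rests on an assignment that cannot be checked from the deposited values.

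The genes for arabinogalactan proteins had the most even ratios. AGP6 and AGP11, which are needed together for normal pollen and tube growth, lie at chr5:4635644-4636676 and chr3:258879-259631. AGP6 had 20053 reads in DEX and 19175 in mock, or 190.0 RPKM in DEX and 156.0 in mock, for a ratio of 0.29 ± 0.015. AGP11 had 11797 reads in DEX and 10810 in mock, at 153.0 RPKM in DEX and 121.0 in mock, for a ratio of 0.35 ± 0.019. The difference between them, 0.06 ± 0.024, was 2.55 times its counting error. AGP23, which encodes a short arabinogalactan peptide from chr3:21384146-21384605, was the most abundant of the 9 genes per length. It reached 534.0 RPKM in DEX (25079 reads) and 437.0 in mock (23910 reads), with a ratio of 0.29 ± 0.013, and ranked 79th among annotated genes in DEX and 121st in mock.

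The start-proximal sequences of AGP6 and AGP11 are shown because these genes have diverged copies on different chromosomes and similar ratios. The 120 bases before the annotated start are at chr5:4636677-4636796 (minus strand) for AGP6 and chr3:258759-258878 (plus strand) for AGP11, from RefSeq TAIR10.1. Capitals mark AGAAA and GTGA on either strand, short motifs first described in pollen promoters of tomato (AGAAA) and tobacco (GTGA):
AGP6: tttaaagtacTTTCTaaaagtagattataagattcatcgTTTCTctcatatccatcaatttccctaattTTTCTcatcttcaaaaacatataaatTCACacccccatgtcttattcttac
AGP11: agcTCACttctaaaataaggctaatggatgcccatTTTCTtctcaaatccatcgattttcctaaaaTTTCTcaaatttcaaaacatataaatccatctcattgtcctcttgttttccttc
These windows were identical at 78 of 114 aligned bases (68.4%), the highest count among all pairs of the 9 genes but not the highest share. VGD1 and VGDH1 were identical at 27 of 32 aligned bases (84.4%). VGD1 and AGP11, of different families, were identical at 62 of 91 (68.1%). In windows of 300 bases before the start, AGAAA was present in 9 of the 9 genes and in 87.3% of 26709 promoters, and GTGA in 7 of the 9 and in 83.1% of promoters. Both shares are close to those over all promoters, and a match of these letters says nothing of binding.

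The calcium pump gene ACA9 (chr3:7425476-7432365), whose product is needed for tube growth and fertilization, had 11903 reads in DEX and 10301 in mock. Its level was 29.3 RPKM in DEX and 21.7 in mock, and its ratio was 0.43 ± 0.019. A stretch of 173 exonic bases overlaps AT3G21190 on the other strand, and whether counting used strand was not given. Of the 9 other genes of the ACA family, 7 (77.8%) were higher and 1 lower by the same rule, at a median of 0.15. Over all genes 36.4% were called higher and 20.8% lower. With ratios centred on the median gene, 5 of these 9 were higher, against 25.4% of all genes. The most read of the 9 were ACA8 at 0.12 ± 0.012, ACA2 at 0.17 ± 0.017, ACA10 at 0.04 ± 0.018 and AT3G22910, the lower one, at -0.07 ± 0.019. The highest ratio in the family outside ACA9 was that of ACA1, 0.35 ± 0.024, which was looked up after its value was seen.

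The receptor kinases ANX1 and ANX2, which act redundantly, differed in both level and ratio. ANX1 (chr3:1273057-1276945) had 2223 reads in DEX and 2162 in mock, the fewest of the 9 genes, at 5.72 RPKM in DEX and 4.77 in mock. Its ratio of 0.26 ± 0.044 was the smallest of the 8 higher genes, and 278 of its exonic bases overlap AT3G04700 and AT3G04710 on the other strand. ANX2 (chr5:10719127-10722361) had 4847 reads in DEX and 3779 in mock, at 15.1 RPKM in DEX and 10.1 in mock, and its ratio of 0.58 ± 0.031 was the largest of the 9. The difference of 0.32 ± 0.054 was 5.95 times its counting error. ANX2 was 2.64 times as abundant per length as ANX1 in DEX and 2.12 times in mock. Of 6 receptor kinase genes of the same family that are used outside pollen, 2 were called higher (33.3%, against 36.4% of all genes), 2 lower and 2 were not called. HERK1, at 0.09 ± 0.026, and AT5G61350, at 0.20 ± 0.088 and not called at a posterior limit of 0.01, were the higher ones, and FER, at -0.10 ± 0.011, and THE1, at -0.35 ± 0.029, the lower ones. HERK2, at -0.06 ± 0.047, was not called, nor was AT2G39360, at -0.10 ± 0.070. The last of these and AT5G61350 were named after their values were seen.

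**Figure D2:**
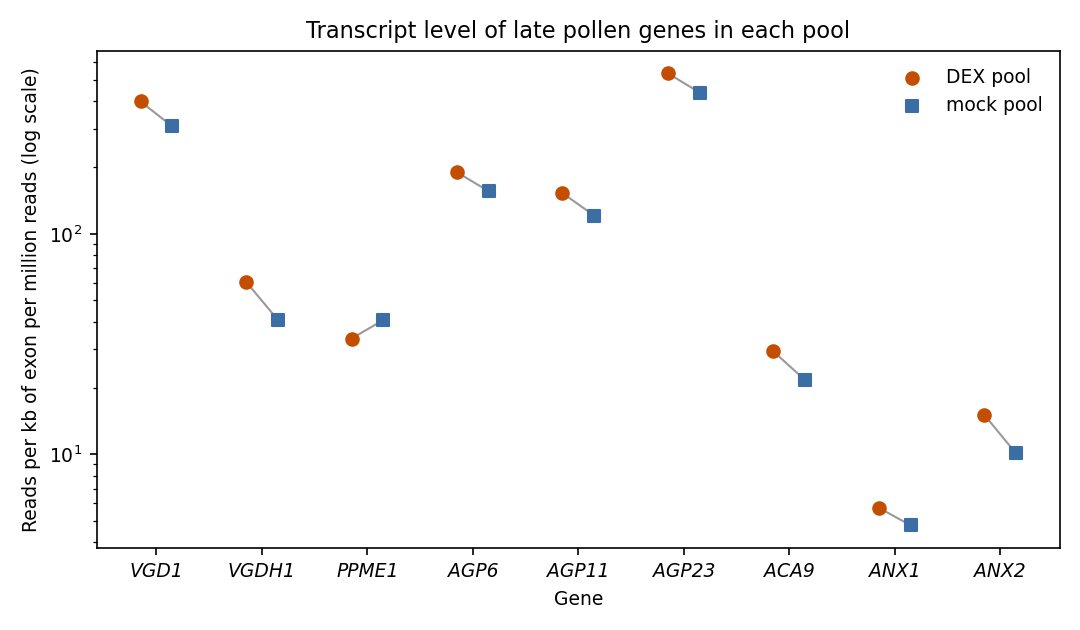
Level of each gene in RPKM (log axis) in the DEX pool (circles) and the mock pool (squares), with 1 pooled value per treatment. AGP23 is highest at 534.0 in DEX and 437.0 in mock, ANX1 lowest at 5.72 in DEX and 4.77 in mock, and PPME1 is the only gene whose DEX value lies below its mock value.

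The order of the levels per length was the same in both pools: AGP23, VGD1, AGP6, AGP11 and VGDH1, then PPME1, ACA9, ANX2 and ANX1. VGDH1 and PPME1 were neighbours in that order and stood apart in DEX, at 60.6 and 33.5 RPKM, and close in mock, at 40.8 and 40.6 RPKM. The levels spanned a factor of 93.4 in DEX and 91.6 in mock. Among the 8 higher genes the ratios had an SD of 0.126, larger than their counting errors of 0.0069 to 0.044. With PPME1, the lower gene, included, the SD was 0.252. Among all genes with read numbers in the range of these genes, whatever their direction, the SD was 0.203. The SD of 0.126 covers higher genes only, so it cannot be set against 0.203.

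**Figure D3:**
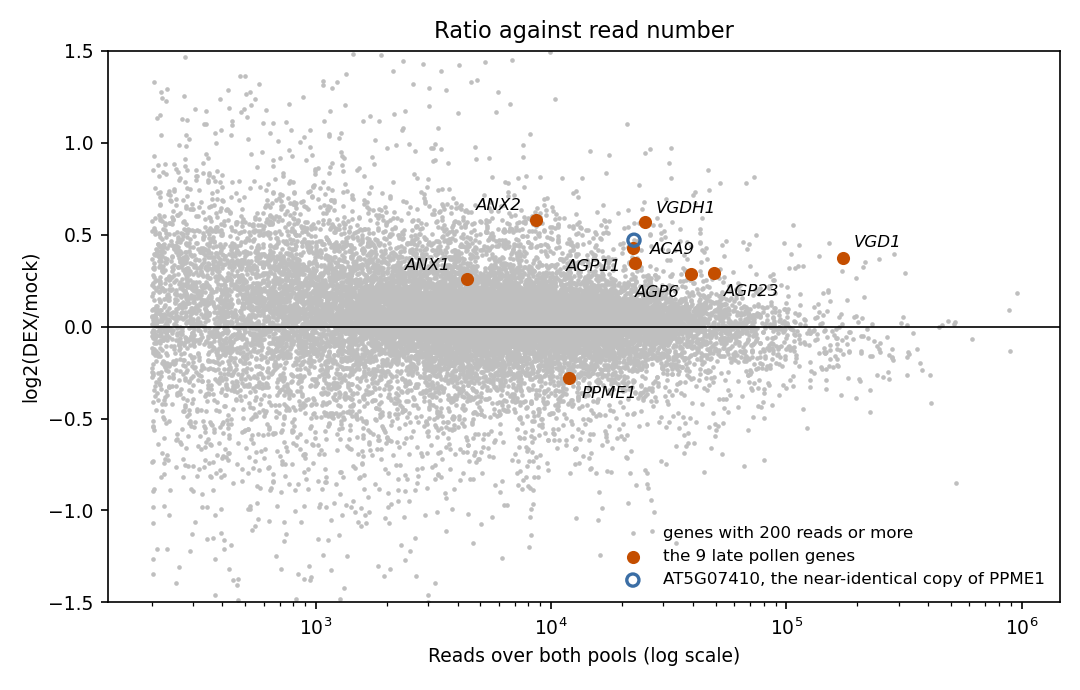
log2(DEX/mock) against reads over both pools (log axis) for genes with 200 reads or more (grey), the 9 late pollen genes and AT5G07410, the near-identical copy of PPME1; 35 genes lie outside the vertical axis. The higher genes lie at the upper side of the cloud at read numbers from 4385 to 174525, and PPME1 and AT5G07410 lie on opposite sides of 0.

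Of 72 measured genes on 5 further lists of pollen and pollen tube genes, which were chosen with earlier results known, 68 were called higher, 1 lower and 3 were not called, with a median ratio of 0.39. Wider sets held smaller shares of higher genes: 42 of 69 other genes that carry the term pollen tube growth were called higher and 7 lower. Of 131 genes that RefSeq notes in mature and germinated pollen alone, 66 (50.4%) were called higher and 20 (15.3%) lower. Over all genes with reads in both pools the shares were 36.4% and 20.8%. All 15 genes of the pollen cell wall were called higher, from 0.19 to 0.58. Among the most read, the polygalacturonase gene PGA4, whose product cuts pectin, was read 130132 times in DEX and 117754 times in mock, for a ratio of 0.37 ± 0.0058. AT5G07430, annotated as pectin lyase-like, was at 0.42 ± 0.011 and AT2G15880, annotated as a leucine-rich repeat protein, at 0.46 ± 0.019. The 22 measured genes of tube signalling were all called higher, with a median of 0.45. They include the peptide genes RALFL4 at 0.36 ± 0.025 and RALFL19 at 0.47 ± 0.036, whose products bind the ANX receptors, and the pollen receptor kinase genes PRK2A at 0.66 ± 0.023 and PRK4 at 0.60 ± 0.035. AT4G39110, annotated as a receptor-like kinase on the same list, was listed at 0 in both treatments.

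Of 15 genes of the pollen cytoskeleton and secretion, 14 (93.3%) were called higher and 0 lower (median 0.37). For comparison, 36.4% of all genes were called higher and 20.8% lower, or 41.8% and 24.5% at 200 reads or more. PLIM2a, a gene for an actin-binding LIM protein, was at 0.51 ± 0.026. The actin gene ACT4 was at 0.41 ± 0.026 and the actin-bundling fimbrin gene FIM5 at 0.15 ± 0.027, while ACT3, at -0.02 ± 0.020, was not called. The transporters varied more, with 10 of 12 (83.3%) called higher and 1 lower. The proton pump genes HA8, HA9 and HA6 were at 0.50 ± 0.011, 0.23 ± 0.0094 and 0.19 ± 0.011, and the sucrose carrier gene SUC1 was the lower one, at -0.03 ± 0.014, a call lost at a posterior limit of 0.01. Of 8 transcription factor genes active in pollen, 7 (87.5%) were called higher. Among them, MYB101, which acts in the tube before sperm release, was at 0.31 ± 0.032. The MADS genes AGL30, AGL104 and AGL65 were at 0.33 ± 0.043, 0.28 ± 0.069 and 0.23 ± 0.084.

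**Figure D4:**
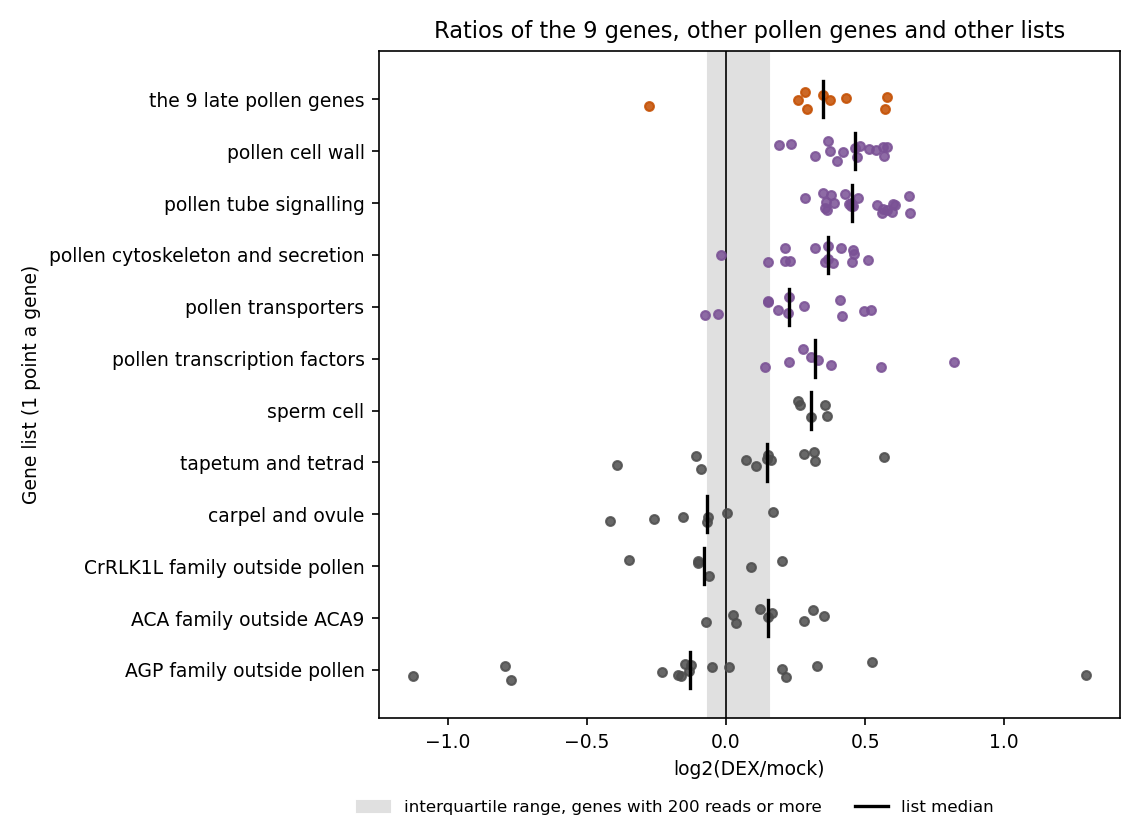
log2(DEX/mock) of each measured gene on 12 lists (1 point a gene, black bar the list median, grey band the interquartile range of genes with 200 reads or more). The medians of the 5 other pollen lists lie between 0.23 and 0.46, that of the carpel and ovule list at -0.07, and PPME1 is the only point of the 9 genes below 0.

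The tapetum and carpel lists had lower medians than each of these 5 lists. The sperm cell median, 0.31, was above that of the transporters, 0.23, and below those of the other pollen lists. Of 5 measured sperm cell genes, 4 (80.0%) were called higher and 0 lower (median 0.31). Among all genes with reads in both pools, 36.4% were called higher and 20.8% lower. The sperm histone gene MGH3 was at 0.27 ± 0.060. HAP2 was at 0.36 ± 0.13, DUO1 at 0.36 ± 0.14 and DAZ1 at 0.31 ± 0.18. At a posterior limit of 0.01, or with ratios centred on the median gene, 3 of the 5 were called higher. Of 12 genes of the tapetum and tetrad stage, which precede mature pollen, 9 were called higher and 2 lower (median 0.15). The summed level of that list was 1090 RPKM in DEX and 1060 in mock, against 1420 in DEX and 1140 in mock for the 9 late pollen genes. ACOS5 and LAP6, enzymes of pollen wall synthesis in the tapetum, were at 0.16 ± 0.012 and 0.15 ± 0.012, and LAP5, of the same pathway, at 0.15 ± 0.015. The most read gene of that list, MEE48, annotated as a glycosyl hydrolase, was called lower at -0.09 ± 0.0099. AT5G07230, named after its value was seen, was the other lower one, at -0.11 ± 0.016. Ratios on that list ran from -0.39 ± 0.25 (DYT1, not called) to 0.57 ± 0.051 (MS1), both named after their values were seen. Of 7 carpel and ovule genes, 1 (14.3%) was called higher and 3 (42.9%) lower (median -0.07). STK, an ovule identity gene and the most read, was the higher one at 0.17 ± 0.030. The carpel regulators CRC, at -0.26 ± 0.035, and SPT, at -0.07 ± 0.036, were called lower (SPT not at a posterior limit of 0.01), and NTT, at 0.0046 ± 0.046, was not called. The summed level of these 7 was 82.5 RPKM in DEX and 87.0 in mock. The part of bud stage in the ratios of the 9 genes was not tested, and with pooled values it cannot be told apart from the treatment.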

How the data were processed

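The 9 genes and the 11 comparison lists were chosen with earlier results of these data known. Per the submitters' processing notes, TopHat 1.2.0, HTSeq 0.4.5p6 and the build TAIR10 were used, without stated roles, and the plants were L er while that reference is Columbia. Per the file headers, the authors deposited LOX output: for each treatment a ratio to the lower treatment (set to 1), posterior probabilities given as a fraction from 0 to 1, interval half-widths (not used for the errors here) and a log-likelihood score. The headers name no library, and the values are taken here as pooled over the 4 libraries a treatment. Fits that block on replicate or leave one out were therefore not run.

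Reads per pool were recovered from the deposited score, taken as the sum of N ln(N/T) - N over the treatments, a formula that no source states. Of 8294 genes with up to 1000 reads, 99.98% came out whole to within 0.1. Recovery was also run on simulated reads whose scores were made with the same formula, so that run could not test the formula. Its calls came from counting error and not from the deposited posteriors, so it could not test those either. Standard errors cover counting error only. The named genes were the 9 members and, on each other list, the 4 genes with the most reads. Besides these, AT5G07410 is named as a copy and AT4G39110 as listed at 0. Other list genes are marked as named after their values were seen. Exonic lengths, positions and sequences came from RefSeq TAIR10.1, which matched 28001 of 28775 loci. Copies were sought with blastn 2.17.0 at 95% identity over 100 bases or more. Work was done in Python 3.11.15 with pandas 2.3.3, SciPy 1.17.1 and Biopython 1.88.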

Additional observations from a re-analysis of the deposited data

How the results depend on the processing

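No paired analysis was possible because each gene has 1 pooled value per treatment, and no replicate could be left out. Of 30 values of single genes under the other settings, 29 kept direction and call. The exception was PPME1, at 0.21 with the reads of its copy added, because the copy holds more reads and is higher in DEX. The counts of 8 higher and 1 lower were both 0 at a 1.5-fold limit, by construction, and the lower count was 0 when genes with a near-identical copy were left out, and without genes that share a 36-base window, which both remove PPME1. The second of these was added after seeing the data. The median of 0.35 was 0.29 when ratios were centred on the median gene. It was 0.32 without the genes that share a 36-base window, and also without VGD1, VGDH1, ACA9 or ANX2 alone. The difference of AGP11 over AGP6 was 0.12 after subtraction of the median of genes with like GC content and length. Of 72 counts on other lists, 64 stayed within 1.5 times. With ratios centred on the median gene, lower calls were 1 for cytoskeleton, 5 for carpel and ovule and 2 over the 5 pollen lists. For the receptor kinase family outside pollen, that centring gave 4 lower calls and 1 higher. At a posterior limit of 0.01 there were 0 lower calls for transporters and over the 5 pollen lists, and 1 higher call for that receptor kinase family. Counting error on the 9 ratios was at most 0.044, and the spread between replicates could not be measured.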

Other observations

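Wider sets of pollen genes, looked up after the data were seen, held a smaller share of higher genes than the chosen lists. The authors' deposited table gives the term pollen tube growth to 75 genes with reads in both pools, among them 6 of the 9 genes above (VGD1, PPME1, AGP6, AGP11, ANX1 and ANX2). Of the other 69, which can include genes of the chosen lists, 42 were called higher in DEX, 7 lower and 20 were not called. Their median log2 ratio was 0.15, and over all genes 36.4% were called higher and 20.8% lower. RefSeq's notes place 153 further genes, on none of the lists, in the mature and germinated pollen stages alone, and 131 of these had reads in both pools. Of these, 66 (50.4%) passed as higher and 20 (15.3%) as lower (median 0.12). At 200 reads or more, 103 genes were left, 58 of them higher and 20 lower by the same rule (median 0.09), where 41.8% of all genes at that depth were higher and 24.5% lower.

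Arabinogalactan protein genes outside pollen had ratios in both directions. Of 16 measured, 5 (31.2%) were called higher and 9 (56.2%) lower (median -0.13), against 36.4% and 20.8% of all genes. AGP9, the most read, was at -0.23 ± 0.011 and AGP15 at 0.21 ± 0.012. AGP1 was at -0.17 ± 0.021 and AGP21 at -0.05 ± 0.023. Looked up after their values were seen, AGP13 was the lowest at -1.12 ± 0.16 and AGP5 the highest at 1.29 ± 0.20.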
